A study of Mus musculus with 12 samples.

Results

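Thymocytes pass from the double-negative stages DN3 and DN4, which carry neither CD4 nor CD8, to the double-positive (DP) stage, which carries both. The 56 genes described here are those that wild-type (WT) mouse cells switched on most strongly at that step, out of 18194 genes with a probe set of a single gene symbol. A gene was a member when the lower of its WT DP arrays exceeded the highest of the 4 WT DN3 and DN4 arrays by at least 2.5 on the log2 scale, read on the gene's brightest probe set. The question was how fully DP cells of IkL/L mice, which the series calls Ikaros-deficient, induced the same genes. The Ikzf1 gene encodes Ikaros, which binds DNA through zinc fingers and acts in lymphoid development, and the IkL allele is known as a hypomorphic one. RNA of sorted thymus cells was measured on Affymetrix arrays in 6 groups of 2 arrays, WT and IkL/L at DN3, DN4 and DP, and each sort combined the cells of 3 mice. The labels name no treatment and no age. Whether a group's arrays came from separate pools is not stated, so the p-values measure the spread between arrays, which may be technical. The array medians lay between 5.14 and 5.22 log2 and precision is limited by having 2 arrays in a group.

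Because the WT arrays chose the members, their rise in WT cells is a description and carries no test. The WT rise, the mean of the DP arrays minus the mean of the DN3 and DN4 group means, had a median of 3.63 log2 and ran from 2.69 to 5.88. Just inside the threshold lay Cacna1e, Ankrd6 and Serinc5, with margins of 2.504, 2.536 and 2.550, and just outside it Lipa, Dgka and Dennd1c, with 2.4998, 2.496 and 2.495. Every member passed the brightness filter for testing. Tdrp and the unnamed transcript BB031773 passed it only through the WT DP arrays, on which they had to be high, and the other 54 passed without those arrays too. Of the 56, 10 lay below the array median on all 4 WT DN arrays. Such a signal may be mostly background, so a rise from it is a lower limit of that in RNA. In bulk RNA, fewer expressing cells and less RNA per cell cannot be told apart.

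DN3 cells rearrange the T cell receptor beta gene, and those that succeed divide rapidly through DN4 into the DP compartment. DP cells then leave the cell cycle, rearrange the receptor alpha gene, and wait for selection on self-peptide while resisting or undergoing death. The step is known for the opening of the Cd4 and Cd8 loci and for the onset of regulators such as Bcl6 and RORγt.

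The samples were checked before the members were compared. Ikzf1 itself was listed at 12.30 and 12.40 log2 on the WT DP arrays and at 11.75 and 11.56 on the IkL/L DP arrays. IkL/L minus WT was -0.70 at DP, -0.63 at DN4 and -0.65 at DN3, and where its probe set lies relative to the mutated exon was not determined. Il2ra, the CD25 chain that marks DN3 cells, lay between 10.30 and 10.72 on the 4 DN3 arrays and between 4.56 and 5.12 on the 4 DP arrays. Another DN3 marker, Ptcra, the pre-receptor alpha chain gene, was higher at IkL/L DP than at WT DP. It was 8.06 and 8.76 at WT DP and 10.03 and 10.05 at IkL/L DP, a difference of 1.63 ± 0.19 (SE; limma adjusted p = 0.00027). Of 14 tested DN3 markers, 3 were called higher and 1 lower at IkL/L DP than at WT DP, where 4.36% and 1.62% of all genes tested were. The defining DP markers Cd4, Cd8a and Cd8b1 were highest on the DP arrays of both genotypes. Of the 31 cell cycle genes of a list, limma called 29 lower at IkL/L DP than at the IkL/L DN stages. Of 8 tested myeloid markers it called 3 lower at that step, of 8 dendritic cell markers 2 and of 7 gamma-delta, NK and innate lymphoid markers 3, where 28.7% of all genes tested were called lower. Between the genotypes, 3 of the 8 dendritic cell markers were called higher in IkL/L cells at DP and 4 at DN3. At DN4, 2 of them were called higher and 1 lower. Of the 7 gamma-delta, NK and innate lymphoid markers, 2 were called higher at DP, but 3 were called lower at DN4 and 2 lower at DN3. Over all genes tested, 4.40% were called higher and 2.48% lower at DN4, and 2.08% and 2.21% at DN3. The mean signal of the 11 dendritic cell markers on the array was 5.93 and 5.77 on the WT DP arrays and 6.06 and 6.20 on the IkL/L DP arrays. Of 14 tested markers of mature single-positive T cells, the member Cd52 among them, 1 was called higher and 3 lower in IkL/L cells at DN4. Their median difference there was -0.74 log2, against 0.00 over all genes tested. At DP none was called higher and 1 lower. The part of other cells and of DN3 markers in the results below was not tested. The 3 IkL/L replicate 2 arrays stood apart in Y-linked signal. Eif2s3y, a Y-linked gene, was between 2.82 and 3.12 on them and between 7.78 and 9.58 on the other 9 arrays. Xist, which female cells express, was between 10.33 and 12.70 on all 12 arrays. The sexes combined in each sort thus differed between the IkL/L replicates, and the part of sex in the results was not tested. Calls that change without those 3 arrays are given beside the results.

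The signal of every one of the 56 genes rose in IkL/L DP cells, to differing shares of the WT rise. The IkL/L arrays took no part in the threshold, so this rise could be tested. All 56 were called higher at IkL/L DP than at the IkL/L DN stages by limma at an adjusted p under 0.05. Of these, Tdrp and BB031773 passed the filter only through the WT DP arrays, so their calls are not read, which leaves 54. BB031773 stayed below the array median on both IkL/L DP arrays, at 4.94 and 5.14. Over all genes tested, 21.2% were called higher. The IkL/L rise had a median of 2.96 log2 over the members, against -0.06 over all genes tested, and it ran from 1.26 for Cacna1e to 6.29 for Cd8a. It exceeded 2 for 49 members. Both IkL/L DP arrays lay above all 4 IkL/L DN arrays for all 56 members, against 25.0% of genes tested. Without IkL/L DP replicate 2 the call of 1 member, Tdrp, was lost: its rise was then 1.08, against 1.55 with all arrays.

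The IkL/L rise as a share of the WT rise had a median of 83.1%, with quartiles at 72.3% and 93.2%. Both rises are in log2, so a share is no ratio of fold changes. It ran from 38.4% for Tdrp to 150.0% for Lsp1. The share was under 50% for 5 members, between 50% and 75% for 13, between 75% and 100% for 28 and above 100% for 10. These shares describe the arrays and have no test, because the WT arrays that form the denominator also chose the genes: a WT DP level selected to be high and WT DN levels selected to be low lower the share. Without the 3 IkL/L replicate 2 arrays the median share was 86.5%. Measured from DN4 alone it was 78.0%, and from DN3 alone 88.4%.

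**Figure D1:**
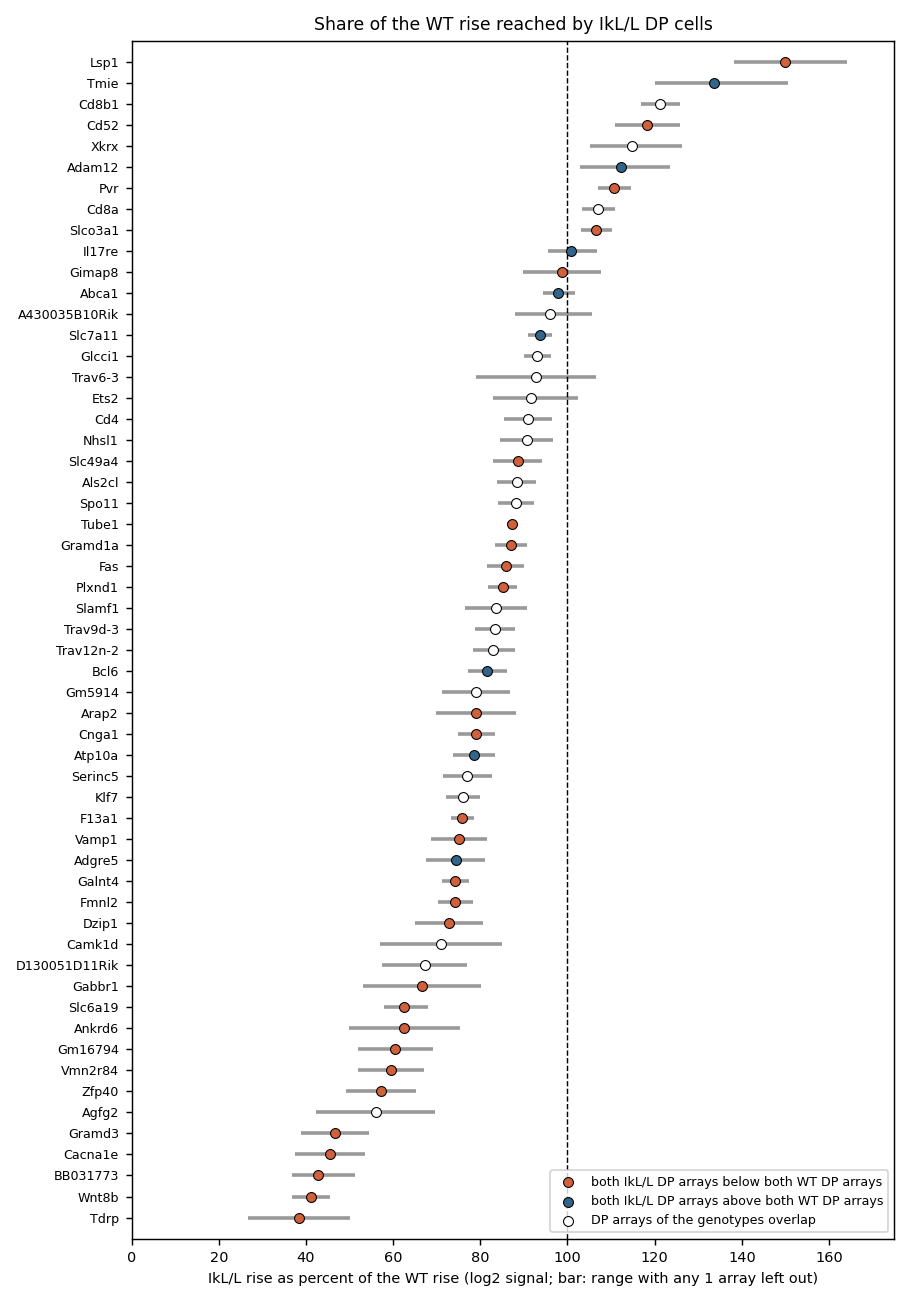
Each point is 1 of the 56 members, placed by its IkL/L rise in log2 signal as a percentage of its WT rise; the bar is the range when any 1 of the 12 arrays is left out, and the colour says on which side of the WT DP arrays the IkL/L DP arrays lay. The members run from 38.4% for Tdrp to 150.0% for Lsp1, and 10 lie above the dashed line at 100%.

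The co-receptor genes reached the WT level. Cd4 encodes the co-receptor for MHC class II, and Cd8a and Cd8b1, neighbours in the genome, encode the chains of the co-receptor for class I. Their surface products define the DP gate, so their levels check the sort and are no finding about the genotypes. Cd4 was 5.71 and 5.77 at WT DN3, 6.35 and 6.20 at WT DN4 and 10.76 and 11.30 at WT DP. In IkL/L cells it was 6.11 and 5.998 at DN3, 6.50 and 6.51 at DN4 and 11.13 and 10.57 at DP. The DP arrays of the genotypes overlapped, and the Cd4 IkL/L rise of 4.57 ± 0.17 (SE; limma adjusted p = 7.66e-09) was 90.9% of the WT rise. Cd8a was 12.69 and 13.01 at WT DP and 12.85 and 12.52 at IkL/L DP, from between 5.94 and 6.90 on the IkL/L DN arrays. Its IkL/L rise of 6.29 ± 0.20 (SE; limma adjusted p = 2.7e-09) was the largest of the members.

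Cd8b1 differed from Cd4 in its timing. In WT cells it was already 9.40 and 9.55 at DN4, against 6.02 and 6.09 at DN3. In IkL/L cells it was 7.86 and 7.78 at DN4, after 5.93 and 5.06 at DN3, and the IkL/L DN4 arrays lay below both WT DN4 arrays. The difference at DN4 was -1.65 ± 0.22 (SE; limma adjusted p = 0.00109). At DP the groups overlapped, with 12.69 and 12.56 in WT and 12.70 and 12.41 in IkL/L, so that Cd8b1 had a share of 121.3% through its lower start.

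The members include 3 variable segments of the receptor alpha locus, which are transcribed as the locus rearranges. Trav12n-2 was 9.35 and 8.84 at WT DP and 8.88 and 8.59 at IkL/L DP, a share of 82.9%. Trav9d-3 reached 11.50 and 11.77 in WT and 11.37 and 11.66 in IkL/L, with a share of 83.4%, and Trav6-3 7.38 and 8.24 in WT and 6.98 and 8.11 in IkL/L, with 92.9%. All 3 overlapped between the genotypes at DP. These segments belong to a large family of near copies, so a probe set may read several of them.

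The 4 transcription factor genes among the members rose in IkL/L cells by between 57.2% and 91.6% of the WT rise. Bcl6, a zinc-finger repressor of the DP stage, was 11.53 and 11.50 at WT DP and 11.58 and 11.65 at IkL/L DP. At DN4 it was 7.26 and 7.56 in WT and 8.55 and 8.34 in IkL/L. The IkL/L arrays lay above the WT arrays at both stages, and the Bcl6 share of 81.6% goes with the higher DN level. Ets2, an ETS-family factor, was 12.28 and 12.93 at WT DP and 12.74 and 12.63 at IkL/L DP, with a rise of 2.85 ± 0.17 in IkL/L cells (SE; limma adjusted p = 1.08e-07) and a share of 91.6%. Klf7, a Krüppel-like factor, was 11.06 and 11.07 in WT and 11.13 and 10.90 in IkL/L at DP, with a share of 76.0%. Zfp40, a zinc-finger gene, was the least fully induced of the 4: 8.50 and 8.23 at WT DP against 7.76 and 7.39 at IkL/L DP, a share of 57.2%. At DN4 both IkL/L arrays exceeded both WT arrays for all 4, as they did for 32.0% of all genes tested, and the rule chose genes low on the WT DN arrays. limma called Bcl6 and Klf7 higher there, calls that leaving out 1 array ends, and did not call Ets2 (adjusted p = 0.107) or Zfp40 (0.144).

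The 8 surface and cytokine receptor genes had shares between 74.3% and 118.3%. Fas, the death receptor, was 8.62 and 8.69 at WT DP and 8.37 and 8.02 at IkL/L DP, from between 4.31 and 4.68 on the WT DN arrays, with a share of 85.8%. Both IkL/L DP arrays lay below both WT arrays, a difference of -0.46 that was not called (limma adjusted p = 0.19). Plxnd1, a semaphorin receptor that guides thymocyte movement, had a share of 85.1%, and Slamf1, a SLAM-family adhesion receptor, 83.6%. Adgre5, which encodes the adhesion receptor CD97, started higher in IkL/L cells: 8.71 and 8.39 at IkL/L DN4 against 6.75 and 7.31 at WT DN4, and 10.59 and 10.13 against 9.88 and 10.02 at DP.

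Cd52, a small glycosylphosphatidylinositol-anchored surface protein, and Pvr, the nectin-like receptor CD155, started lower in IkL/L cells. Cd52 was 9.41 and 9.47 at WT DN4 and 8.25 and 7.90 at IkL/L DN4, then 12.33 and 12.46 at WT DP and 11.83 and 12.16 at IkL/L DP. Pvr was 10.67 and 10.84 at WT DP and 10.21 and 10.14 at IkL/L DP, below WT at both stages, with a share of 110.6%. Il17re, an interleukin-17 receptor family subunit, was 10.34 and 10.001 in WT and 10.93 and 10.83 in IkL/L at DP. Its IkL/L DP arrays lay above the WT arrays, with a share of 100.9%. Xkrx, of the XK family, had 114.8% and overlapped at DP.

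Among the 10 signalling and cytoskeletal genes, the IkL/L rise ran from 2.15 for Ankrd6 to 4.66 for Lsp1. Lsp1, a leukocyte actin-binding protein, started farthest below WT. It was 8.10 and 8.46 at WT DN3 against 6.24 and 5.67 at IkL/L DN3, and 7.89 and 8.40 at WT DN4 against 6.38 and 6.20 at IkL/L DN4. The differences were -2.33 ± 0.24 at DN3 and -1.86 ± 0.24 at DN4 (SE; limma adjusted p = 0.000127 and 0.000743). At DP Lsp1 read 11.05 and 11.59 in WT and 10.83 and 10.73 in IkL/L, so most of the gap closed at that stage and the share was 150.0%.

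Glcci1, a glucocorticoid-induced transcript, was among the brightest members, at 12.49 and 12.66 in WT and 12.64 and 12.41 in IkL/L DP cells. It rose in IkL/L cells already from DN3 to DN4, from 7.96 and 7.60 to 9.98 and 9.93. In WT cells it did so too, from 8.01 and 7.84 to 9.63 and 9.10. Als2cl, a guanine-exchange factor relative, and Nhsl1 had shares of 88.4% and 90.6% and overlapped at DP. Fmnl2, a formin that nucleates actin, and Dzip1, a cilium-related zinc-finger protein, had 74.1% and 72.8%. Camk1d, a calmodulin-dependent kinase, was 10.34 and 9.82 at WT DP and 9.998 and 9.60 at IkL/L DP, overlapping, with a share of 71.0% and unlike IkL/L DN3 arrays at 5.54 and 7.66.

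On the probe sets used, Arap2 and Gimap8 stayed below WT at DN4 and at DP. Arap2, a GTPase-activating protein for Arf proteins, was 10.19 and 10.61 at WT DP and 8.43 and 9.02 at IkL/L DP, and 6.78 and 6.86 against 5.72 and 5.49 at DN4. Its rise was therefore 2.57 ± 0.19 in IkL/L cells (SE; limma adjusted p = 6.09e-07), a share of 79.0%. The other Arap2 probe sets differed by -1.91 and -1.64 at DP but only by -0.23 and -0.13 at DN4. Their shares were 55.4% and 34.4%. With the mean of all probe sets, Arap2 was not called at DN4 (-0.52; limma adjusted p = 0.0738). Gimap8, a lymphocyte GTPase of the immunity-associated family, was 11.27 and 11.20 in WT and 9.88 and 10.60 in IkL/L at DP, with a share of 98.7%. Ankrd6, an ankyrin-repeat protein of Wnt signalling, was 9.21 and 9.98 at WT DP and 7.50 and 8.37 at IkL/L DP, with no overlap and a share of 62.5%.

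The 13 genes of transport, channels and membrane traffic held both fully and poorly induced members. Slc7a11, the cystine and glutamate exchanger, went from between 3.56 and 3.91 on the WT DN arrays to 8.72 and 9.01 at WT DP. In IkL/L cells it was 3.72 and 4.10 at DN3, 4.80 and 4.83 at DN4 and 9.17 and 9.22 at DP. It was above WT at DN4 and DP without overlap, and its rise of 4.83 ± 0.14 (SE; limma adjusted p = 1.68e-09) was 93.7% of that in WT. Abca1, the cholesterol exporter, was 9.82 and 9.97 at WT DP and 10.56 and 10.61 at IkL/L DP, a share of 97.9%. Slco3a1, an organic anion transporter, had 106.5%, Serinc5, a lipid scramblase that restricts retroviruses, 77.1%, and Atp10a, a phospholipid flippase, 78.6%.

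Slc6a19, the neutral amino acid transporter B0AT1, was induced to a lower level. It was 9.29 and 10.06 at WT DP and 7.77 and 7.91 at IkL/L DP, while all 4 IkL/L DN arrays lay between 4.82 and 4.86 and the WT DN arrays between 4.64 and 5.17. The Slc6a19 IkL/L rise was 3.00 ± 0.17 (SE; limma adjusted p = 1e-07), or 62.5% of the WT rise. Cacna1e, the pore subunit of R-type calcium channels, was 8.49 and 8.39 at WT DP and 6.76 and 7.21 at IkL/L DP, from DN levels between 5.50 and 6.03 in both genotypes. It had the smallest IkL/L rise of the members, 1.26 ± 0.15 (SE; limma adjusted p = 2.42e-05), a share of 45.5%. Gramd3, a GRAM-domain protein, was 9.44 and 10.09 in WT and 7.81 and 8.37 in IkL/L at DP, a share of 46.6%.

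The DP arrays of these 3 genes did not overlap between the genotypes, and their DN arrays lay close together. Gabbr1, a GABA type B receptor subunit, had a share of 66.6%, Vamp1, a vesicle SNARE, 75.2%, and Cnga1, a cyclic nucleotide-gated channel, 78.9%. Slc49a4 and Gramd1a, the latter a sterol transfer protein, had 88.6% and 87.0%. All 5 had both IkL/L DP arrays below both WT DP arrays.

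A further 10 members are known mainly from other tissues or processes. Spo11, the meiotic enzyme that makes double-strand breaks, was 11.03 and 10.76 at WT DP and 11.004 and 10.58 at IkL/L DP, with a rise of 4.60 ± 0.21 in IkL/L cells (SE; limma adjusted p = 2.21e-08) and a share of 88.2%. F13a1, the catalytic chain of coagulation factor XIII, was 10.39 and 10.67 in WT and 9.96 and 10.05 in IkL/L at DP, with 75.9%. Adam12, a membrane metalloprotease, was between 3.69 and 4.27 on all 8 DN arrays, 7.57 and 8.33 at WT DP and 8.62 and 8.54 at IkL/L DP. Its IkL/L arrays lay above WT at DP, with a share of 112.3%. Tmie, a subunit of the hair-cell mechanotransduction channel, was 8.85 and 8.13 in WT and 9.46 and 9.64 in IkL/L at DP, with 133.5%.

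Wnt8b, a Wnt ligand, combined a high start with a lower end. It was 4.26 and 4.39 at WT DN3 and 5.05 and 5.07 at WT DN4 against 5.46 and 6.12 and then 6.38 and 6.86 in IkL/L. At DP it was 8.27 and 8.75 in WT and 7.62 and 7.93 in IkL/L. The IkL/L arrays lay above WT at DN3 and DN4 and below it at DP, and the share was 41.1%. All 4 WT DN arrays lay below the array median, where Wnt8b signal may be mostly background. The brighter of its other probe sets differed by 0.34 at DN3, 0.49 at DN4 and -0.71 at DP, with a share of 42.4%. Tdrp, named for testis development, had the lowest share, 38.4%. It was 7.13 and 8.70 at WT DP and 4.87 and 5.82 at IkL/L DP, while its 8 DN arrays lay between 3.67 and 4.02. Those DN signals lay below the array median and may be mostly background, so whether the start differed cannot be read.

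Vmn2r84, a vomeronasal receptor gene, had a share of 59.5%, Agfg2, an Arf-GAP domain protein, 55.97%, Galnt4, a mucin-type glycosyltransferase, 74.3%, and Tube1, epsilon tubulin, 87.3%. The 5 unnamed transcripts had shares between 42.8% for BB031773 and 96.1% for A430035B10Rik. BB031773 was 6.72 and 8.01 at WT DP and 4.94 and 5.14 at IkL/L DP, with its DN arrays between 3.30 and 3.56.

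**Figure D2:**
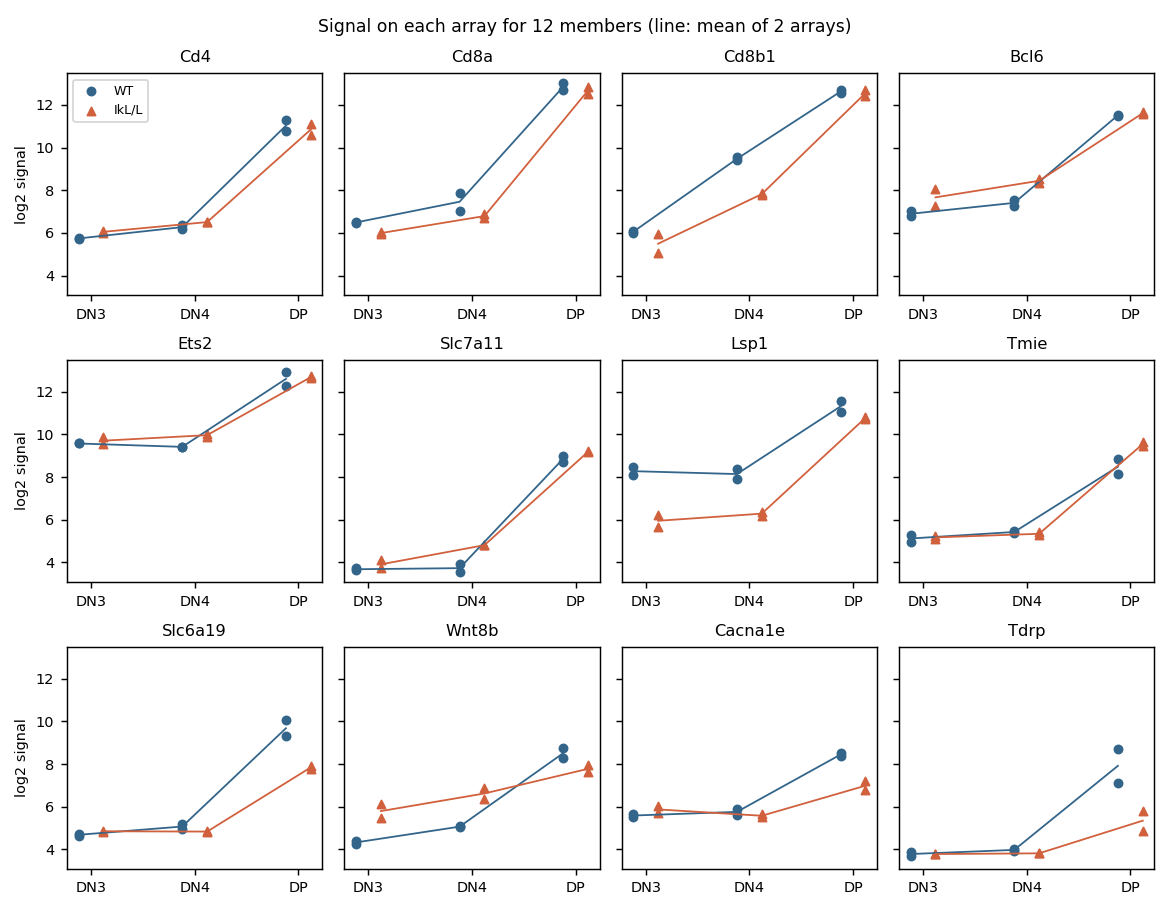
Log2 signal on each of the 12 arrays for 12 members, by stage on the horizontal axis; circles are WT arrays, triangles IkL/L arrays, and lines join the group means of 2 arrays. Cd4, Cd8a and Cd8b1 meet at DP, Slc6a19, Cacna1e and Tdrp end lower in IkL/L, Lsp1 starts lower and Wnt8b starts higher and ends lower.

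At the DP stage itself, IkL/L signal was below WT for 43 members and above it for 13. The median difference was -0.29 log2, against 0.03 over all genes tested, and on the linear scale the median member reached 81.7% of the WT signal. It was at or above 75% for 33 members and under 50% for 8. Both IkL/L DP arrays lay below both WT DP arrays for 28 members and above them for 8, while 20 overlapped; over all genes tested, 18.0% lay below and 26.0% above. limma called 11 members lower and 2 higher, where 1.62% and 4.36% of all genes tested were called. The WT DP arrays in this comparison are those that chose the genes as high, which favours a lower IkL/L value, so neither count is read as a property of the group.

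Among the 11 members called lower were Tdrp, at -2.57, and BB031773, at -2.32. Both passed the filter only through the WT DP arrays, so these differences are given as values and their calls are not read. Slc6a19, the amino acid transporter gene, differed by -1.83 ± 0.20 (SE; limma adjusted p = 0.000157), which left 28.04% of the WT signal. Gramd3 differed by -1.68 ± 0.24, the GTPase regulator gene Arap2 by -1.67 ± 0.22 and the calcium channel gene Cacna1e by -1.46 ± 0.17 (SE; limma adjusted p = 0.00115, 0.000598 and 0.000287). These 4 were called in every one of the 23 alternative settings. The settings reuse the same genes and nearly the same WT DP arrays, so a call that lasts does not bear on how the choice of members favours a lower IkL/L value.

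For the remaining 7 calls at DP, leaving out 1 array took the limma adjusted p above 0.05. Ankrd6 differed by -1.66 (limma adjusted p = 0.00938), and by -1.22 (0.103) without IkL/L DP replicate 1 and -1.27 (0.0703) without WT DP replicate 2. Cnga1 differed by -0.99 (0.00981), and by -0.87 (0.0971) without IkL/L DP replicate 1 and -0.86 (0.0713) without WT DP replicate 1. Slc49a4 differed by -0.81 (0.0171), and by -0.63 (0.156) without IkL/L DP replicate 2 and -0.67 (0.0929) without WT DP replicate 2. Gimap8 differed by -0.996 (0.0293) and Vamp1 by -1.07 (0.0413).

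The Gimap8 call was lost without any 1 of the WT DN4 or WT DP arrays or IkL/L DP replicate 1, where the difference was -0.64 (0.244). The Vamp1 call was lost without any 1 of 8 arrays, those of WT and IkL/L DP among them, with adjusted p up to 0.267, and with the replicate number as a block (0.0593). The members called higher were Tmie, by 1.06 ± 0.21 (limma adjusted p = 0.00925), and Il17re, by 0.71 ± 0.17 (0.0263). Without IkL/L DP replicate 2 they differed by 0.97 (0.0789) and 0.76 (0.0907). Without WT DP replicate 2 the Tmie difference was 0.70 (0.0465) and that of Il17re 0.54 (0.132), and Il17re was not called without IkL/L DP replicate 1 either (0.66; 0.157). Without the 3 IkL/L replicate 2 arrays, Tmie (0.97; 0.0891), Il17re (0.76; 0.0891), Slc49a4 (-0.63; 0.103) and Vamp1 (-0.84; 0.0523) were not called at DP.

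Before the DP stage the members were more often higher in IkL/L cells. At DN4 the median difference was 0.45 log2, against 0.00 over all genes tested, with 37 members above 0. Both IkL/L DN4 arrays lay above both WT arrays for 31 members and below for 14, where 32.0% and 28.6% of all genes tested did so. limma called 15 members higher and 6 lower, against 4.40% and 2.48% of all genes tested. The WT DN4 arrays were chosen as low, which favours a higher IkL/L value, so the excess is given as a description.

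Of these calls at DN4, 7 were kept in all 23 alternatives. Those higher in IkL/L cells were Wnt8b by 1.56 ± 0.23, Adgre5 by 1.52 ± 0.20, Slc7a11 by 1.08 ± 0.17 and Serinc5 by 0.93 ± 0.14 (SE; limma adjusted p = 0.00221, 0.00101, 0.00253 and 0.00183). The Slc7a11 signals at DN4 lay below the array median, and its other probe set differed there by 0.36. For Wnt8b the WT DN4 signals lay below it, and the brighter of its other probe sets differed by 0.49. Those lower were Lsp1 and Cd8b1, given above, and Pvr by -1.04 ± 0.16 (limma adjusted p = 0.0026). The lower direction is the one that the choice of members does not favour. The part of other cells, such as mature single-positive ones, in these lower values was not tested. The other 14 calls, among them Bcl6 at 1.03 (limma adjusted p = 0.0145), Klf7 at 0.75 (0.00847), Spo11 at 1.17 (0.0145), Cd52 at -1.37 (0.0101), Arap2 at -1.22 (0.00665) and Gimap8 at -1.30 (0.00732), were each lost when 1 of the DN4 arrays was left out. The count of DN4 calls was then between 9 and 12, against 21 with all arrays. Without the 3 IkL/L replicate 2 arrays, the calls of Als2cl, Atp10a, Galnt4 and Tube1 were lost at DN4, with limma adjusted p between 0.0594 and 0.132.

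At DN3 the median difference was 0.14 log2, with 19 members above WT on both arrays and 15 below, against 19.7% and 26.7% of all genes tested. limma called 6 higher and 2 lower, where 2.08% and 2.21% of all genes tested were called. Lsp1, given above, and Wnt8b, higher by 1.47 ± 0.23 (limma adjusted p = 0.00309), kept their calls in all alternatives. Abca1, Adgre5, F13a1, Il17re and Klf7 were called higher and Pvr lower, and each of these calls was lost when WT DN3 replicate 2 was left out, after which 3 members were called. Without IkL/L DN3 replicate 1 there were 14. The calls of Adgre5, Il17re, Klf7 and Pvr were also lost without the 3 IkL/L replicate 2 arrays (limma adjusted p between 0.0596 and 0.30).

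**Figure D3:**
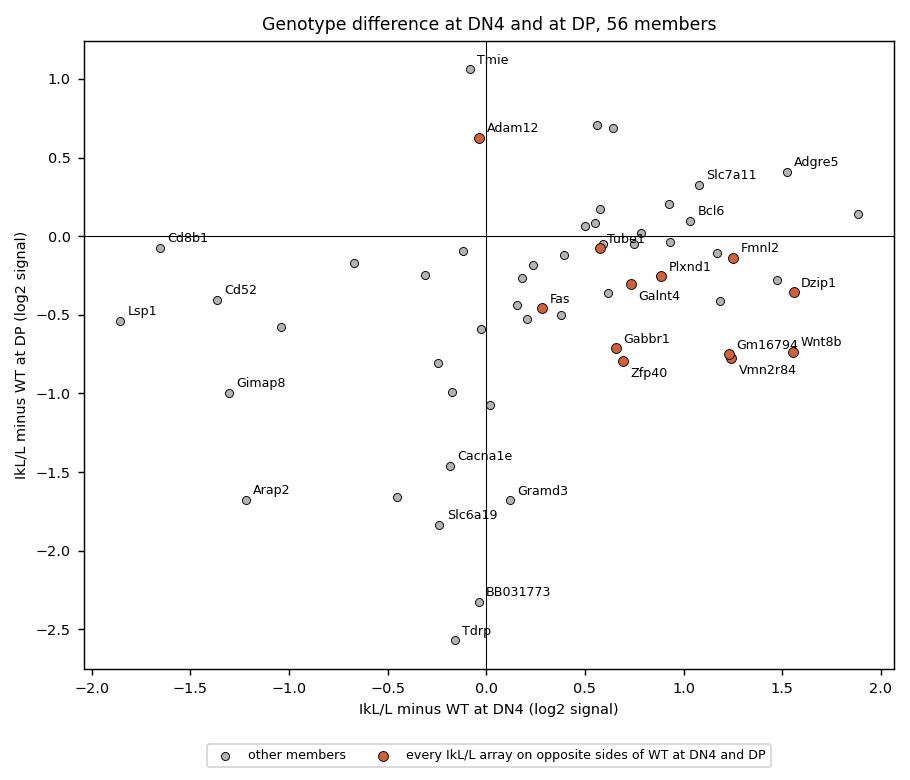
IkL/L minus WT in log2 signal at DN4 (horizontal axis) and at DP (vertical axis) for the 56 members; each point is the difference of means of 2 arrays, and coloured points are the 12 members whose IkL/L arrays lay on opposite sides of both WT arrays at the 2 stages. Wnt8b, Vmn2r84 and Gm16794 lie farthest into the lower right, higher at DN4 and lower at DP, and Lsp1, Gimap8 and Arap2 lie below WT at both stages.

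The start and the end of the rise crossed for some members. For 11 genes both IkL/L arrays were above WT at DN4 and below WT at DP, and for 1, Adam12, the reverse held; over all genes tested, 3.79% and 4.13% did so. The 11 were Wnt8b, Vmn2r84, Gm16794, Dzip1, Zfp40, Fmnl2, Gabbr1, Plxnd1, Galnt4, Fas and Tube1. The rule favours this pattern, since it takes WT genes low at DN4 and high at DP. Some of the gaps were small. The Adam12 difference at DN4 was -0.04, at signals below the array median, and Fmnl2 and Tube1 differed at DP by -0.14 and -0.07. A further 11 members were below WT at both stages and 6 above it at both, among them Bcl6, Slc7a11, Adgre5 and Atp10a.

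The step from DN3 to DN4 within IkL/L cells used no WT array. limma called 9 members higher at DN4 and 2 lower, against 1.20% and 3.19% of all genes tested. Cd8b1 rose by 2.33 ± 0.22, Glcci1 by 2.17 ± 0.19 and Adgre5 by 1.33 ± 0.20 (SE; limma adjusted p = 0.000115, 3.9e-05 and 0.00277), and these 3 calls were kept in all alternatives. Trav9d-3, Slc7a11, Als2cl, Slc49a4, Tube1 and Serinc5 were called higher by between 0.59 and 1.13. The Slc7a11 signals lay below the array median, and its other probe set rose by 0.17. Abca1 fell by 1.25 and Arap2 by 1.10 (limma adjusted p = 0.00398 and 0.0137). With the mean of all probe sets neither was called (-0.37 and -0.33; limma adjusted p = 0.144 and 0.314). With either IkL/L DN4 array left out, 6 members were called in all. Without the 3 IkL/L replicate 2 arrays, Als2cl, Serinc5, Slc49a4, Trav9d-3 and Tube1 were not called (limma adjusted p between 0.0829 and 0.299). The WT step ran from -1.52 to 3.42 over the members, with Cd8b1 highest there too, Glcci1 at 1.44 and Adgre5 at 0.81.

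When the rule was applied to the IkL/L arrays in place of the WT arrays, 53 genes met it. Of these, 29 were members, which is 51.8% of the members and 54.7% of the IkL/L genes. The 29 include Cd4, Cd8a, Cd8b1, Bcl6, Slc7a11, Spo11, F13a1, Lsp1 and Slc6a19. The other 27 members had IkL/L margins between 0.73 and 2.43, so their IkL/L DP arrays cleared all IkL/L DN arrays by less than the threshold. The 24 genes that met the rule in IkL/L cells alone had WT margins between 0.33 and 2.496, above 0 for all 24. Their median WT margin was 1.94, and they include Dgka, a diacylglycerol kinase with 2.496, and P2rx1, an ATP-gated channel with 2.14.

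The choice was also turned round. For the 53 genes chosen on IkL/L arrays, the median WT rise was 93.9% of the IkL/L rise. Their median IkL/L minus WT difference at DP was -0.12. Since 29 of the 53 are members, chosen as high on the WT DP arrays too, this set is not independent of the first choice. For the 29 genes that met the rule in both genotypes, the median IkL/L share was 92.9% and the median DP difference -0.14. The IkL/L margin asked of these 29 holds both values up, so they are a description. For the 27 members that met it in WT alone the share was 74.3%, which their lower IkL/L margin fixes. A few of the 24 rose little in WT. Syt14, a synaptotagmin, was 5.005 and 5.14 at WT DP and 8.52 and 8.73 at IkL/L DP, and Ddr1, a collagen receptor kinase, 5.91 and 6.68 against 9.06 and 9.53. Sertad4 was 4.51 and 5.32 against 10.19 and 9.93.

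**Figure D4:**
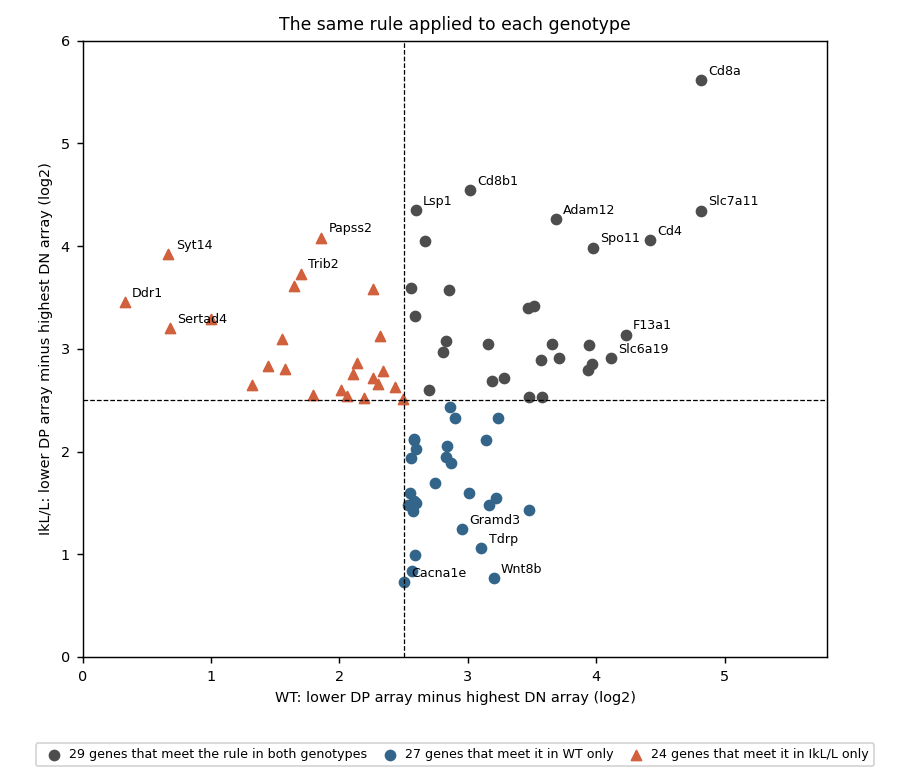
The lower DP array minus the highest DN array, in log2, in WT (horizontal axis) and IkL/L cells (vertical axis) for the 80 genes that met the rule in at least 1 genotype; dashed lines mark the threshold of 2.5. The 29 genes in the upper right meet it in both, with Cd8a farthest out, and Syt14, Ddr1 and Sertad4 on the left clear it in IkL/L cells with WT margins under 1.

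Other probe sets of the members were compared. Of the 56, 34 had 71 further probe sets, 48 of them, for 28 members, no dimmer than the median of either WT DP array. The WT rise exceeded 1 log2 on 44 of these 48, and the IkL/L rise did so too on 37 of the 44. The median share over the 44 was 83.8%. The IkL/L rise was below 0 on 5 of the 71, and on 1 of the bright ones, for Nhsl1, where the rises were -0.39 in WT and -0.24 in IkL/L. The other 4 were dim probe sets of Ankrd6, Dzip1, Nhsl1 and Wnt8b. With the mean of all probe sets per gene, all 56 members were still called in the IkL/L rise and the median was 2.39. The probe set was the same for 54 members when it was picked on WT arrays alone, and the median share was again 83.1%.

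Some IkL/L DN3 values differed between the replicate arrays. Camk1d, Agfg2, Dzip1, D130051D11Rik, Vmn2r84 and Gm16794 were more than 1 log2 higher on replicate 2 than on replicate 1, by up to 2.11 for Camk1d. The 3' minus 5' actin control signal, which reads how far labelling reached along the RNA, was 2.86 on that array and 1.92 on replicate 1, and 2.04 to 2.15 at WT DN3. It was 1.74 and 1.93 at WT DN4 and 1.93 and 2.39 at IkL/L DN4. It was 2.86 and 2.29 on the WT DP arrays and 2.26 and 2.64 on the IkL/L DP arrays. The 5' Gapdh control was 9.62 and 9.33 at WT DP, 10.38 and 9.78 at IkL/L DP and 10.92 to 11.57 on the DN arrays. The 3' Gapdh control was 13.02 to 13.40 on the DP arrays and 13.58 to 13.85 on the DN arrays. The part of this stage difference in the rises and shares was not tested. With the actin control as a covariate, chosen after seeing the data, all 56 members were called in the IkL/L rise with a median of 2.99. At DP, 16 were then called lower and 3 higher.

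Lists of related genes give the setting of the step. Of 36 tested genes of the T cell receptor, its co-receptors and proximal signalling, limma called 27 higher and 2 lower in the IkL/L rise, with a median of 0.91, and 1 higher and 1 lower between genotypes at DP. Over all genes tested, 21.2% and 28.7% were called higher and lower in the IkL/L rise, and 4.36% and 1.62% between genotypes at DP. Of 59 transcription and chromatin factors of the DP stage, 33 rose and 7 fell in IkL/L cells, and 4 were called higher and 1 lower than in WT at DP. Of 44 solute carrier, lipid and redox genes, 18 rose and 15 fell, and 4 and 3 were called higher and lower between genotypes. The members in these lists are Cd4, Cd8a and Cd8b1 in the first, Bcl6, Ets2 and Klf7 in the second, and Abca1, Slc6a19 and Slc7a11 in the third. Of 14 Notch receptors and targets, 5 were called higher in IkL/L cells at DP by limma, and of 19 interferon response genes 5 higher and 1 lower. Rag1 and Rag2, the recombinase genes, are no members but rose by 1.71 and 2.28 in IkL/L cells and 1.67 and 2.37 in WT.

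The starts of the genes are shown for members at different points of the order: Cd8a and Slc7a11, induced at or near the WT extent, Slc6a19 at 62.5% and Wnt8b at 41.1%. Each sequence is the RefSeq window of 300 bases on GRCm38.p6, from 250 before to 50 after the start of the gene, written 5′ to 3′ on the strand of the gene. Capitals mark any of 7 motifs of 6 letters searched on both strands: TGGGAA, the Ikaros core; AGGTCA, a ROR motif; CAGCTG and CACCTG, E-boxes; TGTGGT, a Runx motif; GGAAGT, an Ets motif; and TATAAA. The windows were chosen after the values were seen and lie at chr6:71373177-71373476 (plus strand) for Cd8a, chr3:50443564-50443863 (minus) for Slc7a11, chr13:73692587-73692886 (minus) for Slc6a19 and chr19:44493222-44493521 (plus) for Wnt8b.
Cd8a: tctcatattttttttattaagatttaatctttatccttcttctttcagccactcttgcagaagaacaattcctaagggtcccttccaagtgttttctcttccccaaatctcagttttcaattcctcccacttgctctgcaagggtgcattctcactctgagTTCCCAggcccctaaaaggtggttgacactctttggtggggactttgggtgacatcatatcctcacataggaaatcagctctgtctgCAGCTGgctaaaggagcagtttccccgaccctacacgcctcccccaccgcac
Slc7a11: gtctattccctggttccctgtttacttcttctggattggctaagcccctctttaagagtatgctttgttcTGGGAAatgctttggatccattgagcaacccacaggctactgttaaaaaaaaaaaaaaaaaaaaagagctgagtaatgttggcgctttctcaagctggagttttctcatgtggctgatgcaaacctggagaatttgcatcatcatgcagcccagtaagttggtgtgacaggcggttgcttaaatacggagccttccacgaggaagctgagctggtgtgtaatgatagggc
Slc6a19: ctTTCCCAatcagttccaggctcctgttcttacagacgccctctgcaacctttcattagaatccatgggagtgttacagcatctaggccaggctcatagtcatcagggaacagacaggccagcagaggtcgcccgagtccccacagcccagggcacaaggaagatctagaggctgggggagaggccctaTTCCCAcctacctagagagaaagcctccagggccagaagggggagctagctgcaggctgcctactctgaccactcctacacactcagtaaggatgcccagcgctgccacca
Wnt8b: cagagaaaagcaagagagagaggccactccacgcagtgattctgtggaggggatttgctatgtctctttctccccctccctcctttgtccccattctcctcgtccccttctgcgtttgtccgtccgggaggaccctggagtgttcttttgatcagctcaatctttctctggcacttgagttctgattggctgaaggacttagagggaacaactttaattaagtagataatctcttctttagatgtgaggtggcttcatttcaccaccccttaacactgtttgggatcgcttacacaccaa

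The Cd8a window holds the Ikaros core once on the opposite strand, beginning 89 bases before the start, and an E-box across the start itself. The Slc7a11 window holds the core once, beginning 180 bases before the start, and the Slc6a19 window holds it at 248 and at 61 bases before the start on the opposite strand. The Wnt8b window holds none of the 7. The windows of Ets2, with a share of 91.6%, and Cacna1e, with 45.5%, were also read and hold none of the 7. The table held windows for 40 of the 56 members, 53 windows in all. The Ikaros core was in 22.6% of them and in 25.6% of all 32851 windows, the E-box CAGCTG in 22.6% and 16.3%, and CACCTG in 15.1% and 20.2%. The Runx motif was in 1.89% and 16.8%, the Ets motif in 9.43% and 23.8%, the ROR motif in 9.43% and 16.3% and TATAAA in 5.66% and 13.6%. Windows of 1 gene can overlap, and a match is a description of letters, not of a bound site.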

How the data were processed

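RNA of sorted WT and IkL/L thymocytes was measured on 12 arrays. The authors' deposited values are log2 signals made with RMA, per the submitters' processing notes (version not given); RMA corrects background, quantile normalizes and summarises each probe set. Per the labels' protocols, targets were made by a labelling assay of 2 cycles in 3 series that start from different amounts of RNA and are not assigned to samples, so that batch was not tested. The platform table gives a single gene symbol to 34958 of 45099 probe sets and several to 932, and leaves 9209 without one; the single ones were used. The brightest probe set by the mean over the 12 arrays stands for its gene. Testing covered the 11649 genes that reached the array median on 2 or more arrays.

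Differences were fitted with limma 3.58.1 in R 4.3.3 (1 mean per group, empirical prior) and tested on simulated data. Calls use a Benjamini-Hochberg adjusted p under 0.05 over all tested genes. The prior added 5.67 degrees of freedom to 6. The share of the WT rise has no test. Arrays have no read depth, and signals below the array median may be mostly background.

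The members, gene lists and role groups were chosen with earlier results of these data known. Genes were named by rule: lowest and highest shares, brightest, largest rises, list members, those next to the threshold, those called at DP and those whose probe sets disagree. Members outside the rule were named to account for all 56. Promoter windows are RefSeq's. Alternatives were other filters, scalings, priors, probe set summaries, a replicate block and left-out arrays.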

Additional observations from a re-analysis of the deposited data

Results flagged for a closer look

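For 12 members the IkL/L arrays lay on opposite sides of both WT arrays at DN4 and at DP, for some by a small gap. The difference between the stages was not tested, and the WT arrays in it are those that chose the genes as low at DN4 and high at DP. The value given is IkL/L minus WT at DP less that at DN4, on the log2 scale. It was -2.29 for Wnt8b, the Wnt ligand, -2.01 for the vomeronasal receptor gene Vmn2r84, -1.98 for the unnamed transcript Gm16794 and -1.91 for Dzip1. For Zfp40 it was -1.49, for the formin gene Fmnl2 -1.39, for the receptor subunit gene Gabbr1 -1.37, for the semaphorin receptor gene Plxnd1 -1.14 and for Galnt4 -1.03. For the death receptor gene Fas it was -0.74 and for Tube1 -0.65. The reverse order held for the metalloprotease gene Adam12, at 0.66. Its DN4 difference was -0.04, at signals below the array median, and the DP differences of Fmnl2 and Tube1 were -0.14 and -0.07. Dzip1, Vmn2r84 and Gm16794 are also among the members that differed by over 1 log2 between the IkL/L DN3 arrays.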

How the results depend on the processing

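All 56 members rose in IkL/L cells in every alternative that tested them, except Tdrp without IkL/L DP replicate 2 or without the 3 IkL/L replicate 2 arrays (1.07; limma adjusted p = 0.0943). Tdrp and BB031773, whose calls are not read, fall under the filter at the 75th percentile. No direction of a called member or of a median reversed. Signals near background and pairs of arrays limit the smaller differences.

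The median IkL/L rise was 2.39 with the mean of all probe sets, 3.28 without the 3 IkL/L replicate 2 arrays, and 2.96 to 3.07 with any 1 array left out. The median share of the WT rise was 78.0% from DN4 alone, 88.4% from DN3 alone, 86.5% without those 3 arrays, and 82.1% to 85.3% with 1 array left out. The median difference at DN4 was 0.18 with the mean of all probe sets.

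The rule gave 113 members at a margin of 2 and 29 at 3, 110 with the step from DN4 alone, and 57 to 93 with 1 WT array left out, the 93 without WT DP replicate 1. On IkL/L arrays it gave 98 and 28 genes at those margins, with 62 and 12 shared.

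At an adjusted p under 0.01, 6 members were called from DN3 to DN4 in IkL/L cells, 11 between genotypes at DN4 and 3 at DN3. With only the arrays of the contrast the counts were 5, 34 and 4, and 8 at DP. Array weights gave 32 at DN4, the mean of all probe sets 5 at DN3, and leaving out the 3 arrays 6 from DN3 to DN4. With 1 array left out, the counts were 6 to 13 from DN3 to DN4, 9 to 26 at DN4 and 3 to 14 at DN3. The cause was not tested for any of these.

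With the replicate number as a block, the fit called 56 members in the IkL/L rise, 14 at DP, 22 at DN4, 10 at DN3 and 12 from DN3 to DN4. The labels do not say what a number shares. The correlation of replicate 2 minus replicate 1 was 0.15 to 0.32 within WT, and within IkL/L 0.49 between DN3 and DN4 and 0.01 and 0.09 with DP. Between genotypes it was -0.34 to 0.06, so the rule of over 0.1 in every pair was not met and the block is given as an alternative.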
